A study of Mus musculus with 10 samples.

Results

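The 10 genes described here encode proteins that bring iron into a cell, store it, release it from storage, pass it to mitochondria and sense how much there is: Tfrc, Slc11a2, Steap3, Slc25a37, Fth1, Ftl1, Ncoa4, Ireb2, Aco1 and Fbxl5. They were chosen by name, for iron handling apart from the macrophage iron exporter, and all 10 are among the 16865 gene symbols of the table. RNA was sequenced in bulk from leukemic spleens of C57BL/6 mice. Each recipient mouse had been irradiated and had received T cell acute lymphoblastic leukemia (T-ALL) carrying a conditional Sirt1 knockout, so both groups share that allele. Sirt1 encodes a NAD-dependent protein deacetylase. Control mice (5 libraries) were given the corn oil vehicle, and Sirt1 deleted mice (5 libraries) were given 3 mg tamoxifen in that vehicle. Effects of the drug and of the deletion cannot be told apart here, since no library had tamoxifen without deletion. The labels give neither the Cre driver nor the age of the mice nor the leukemia each recipient carried. They do not say that the libraries come from separate leukemias, so p-values measure the spread between these libraries only. The spleens also hold cells of the recipient, although red cells were lysed.

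Most cells take up iron bound to transferrin. The transferrin receptor carries it into endosomes, a reductase converts it, and a transporter moves it into the cytosol, where it is used, stored in ferritin or passed to mitochondria. When iron is scarce, the iron regulatory proteins bind hairpins in messenger RNAs called iron-responsive elements (IREs): binding near the start of the ferritin messages blocks their translation, and binding in the tail of the transferrin receptor message protects it from decay. Dividing lymphocytes and leukemic cells depend on transferrin receptor for iron, and erythroid cells use more iron than other cells, for heme.

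The hairpins are shown because they link the storage genes and the uptake receptor to the same sensors. A search of GENCODE M21 transcripts (GRCm38) for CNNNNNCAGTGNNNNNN, with the 5 bases before the loop CAGTGN pairing with the 5 after it (G-T pairs allowed), found the element in the 5′ untranslated region (UTR) of Fth1 and Ftl1, once each, and in the 3′ UTR of Tfrc, 4 times. Transcripts were read on their own strand only. The sequences below are 30 bases long, 5′ to 3′, with the loop in capitals.
Fth1, chr19:9982732-9982761, plus strand: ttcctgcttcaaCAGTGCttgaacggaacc
Ftl1, chr7:45459778-45459807, minus strand: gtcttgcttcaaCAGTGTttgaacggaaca
Tfrc, chr16:32631219-32631248, plus strand: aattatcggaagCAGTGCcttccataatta
Tfrc, chr16:32631598-32631627, plus strand: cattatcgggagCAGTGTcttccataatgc
Tfrc, chr16:32631663-32631692, plus strand: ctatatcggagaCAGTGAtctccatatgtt
Tfrc, chr16:32631710-32631739, plus strand: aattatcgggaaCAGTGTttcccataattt
The pair of ferritin hairpins share the stem ahead of the loop, and the Tfrc hairpins have A and T rich outer arms. Of 14846 listed genes with a protein-coding transcript, 0.175% held a match in a 5′ UTR and 0.734% in a 3′ UTR. No match was found in the other 7 iron genes, which says only that these letters, paired this way, are not in their annotated protein-coding transcripts. The element lies in 4 of 5 annotated protein-coding transcripts of Fth1, 1 of 2 of Ftl1 and 1 of 3 of Tfrc, and the deposited values are per gene and do not separate these forms.

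The values are the authors' normalized counts, which summed to between 33587587 and 34790203 per library. The spacing of the lowest values puts the depth at about 21.2 to 44.3 M reads. The value with the fewest reads among the iron genes, Steap3 in Sirt1 deleted library 2, rests on about 734 reads, a counting error of 3.69%, so the spread between libraries and not depth limits the comparisons. Sirt1 itself was at 1233 ± 97.6 normalized counts in the control group and 918 ± 155 in the deleted group (SD, n = 5), with all 5 deleted libraries below every control (log2 difference -0.44, exact permutation p = 0.00794, the smallest that this design allows). Corrected for transcript length and GC content, it was -0.25 (limma adjusted p = 0.029), and with each library's slope on transcript length as a covariate -0.00065 (adjusted p = 0.999). T cell markers were high in every library: the 12 listed summed to 249834 to 289577, against at most 501 for 10 B cell markers. A set of 14 erythroid markers summed to 431259 to 549304 in the control group and 212135 to 479208 in the deleted group, and 12 macrophage markers to 7502 to 11734 and 3628 to 7165. Sirt1 deleted library 1 had the lowest erythroid and macrophage sums and the highest sum of 10 neutrophil markers (8552, against 1456 to 4172 in the other 9 libraries). In bulk RNA, fewer cells of a type and less RNA per cell cannot be told apart.

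In the values as deposited, the receptor and transporter of transferrin iron fell in the Sirt1 deleted group and both ferritin chains rose. Of the 10 genes, 2 rose (Fth1, Ftl1), 5 fell (Tfrc, Slc11a2, Slc25a37, Ncoa4, Ireb2) and 3 did not pass (Steap3, Aco1, Fbxl5), by limma on log2(value + 1) at an adjusted p of 0.05 over all genes. All 10 passed the filter on low values. Over all 13567 genes tested, 32.0% passed, 14.5% higher and 17.5% lower, and the groups did not overlap for 8.28% (deleted higher) and 8.18% (deleted lower). The median log2 difference of the 10 genes was -0.22, against 0.00097 for all genes tested. Differences of all genes moved with transcript length, and the ferritin messages are shorter than those of the other 8 genes; the slopes on length did not overlap between the groups, so length and group cannot be told apart. Once each library was corrected for transcript length and GC content, 3 of the 10 genes were called, all lower: Tfrc, Slc11a2 and Ncoa4 (median of the 10 genes -0.05, all genes 0.0041). The ferritin rises and the Ireb2 fall were then no longer called. In the corrected values 14.6% of 12394 genes passed, 8.48% higher and 6.1% lower. With principal transcripts in the correction the same 3 genes were called, where 17.1% of all genes passed.

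**Figure D1:**
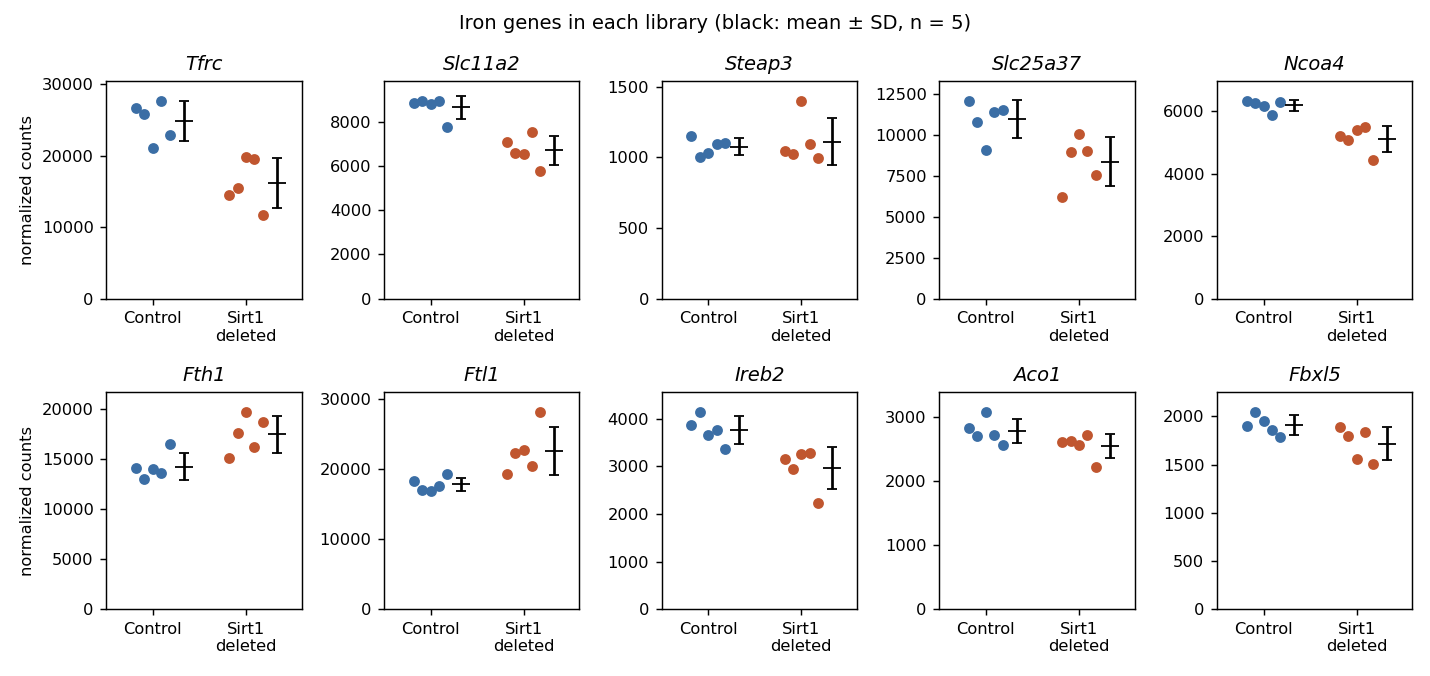
Normalized counts (axes from 0) of the 10 iron genes in each library, control in blue and Sirt1 deleted in orange, with the mean ± SD of 5 libraries in black. The groups do not overlap for Tfrc, Slc11a2, Ncoa4 and Ireb2, and overlap for the other 6 genes.

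Tfrc encodes the transferrin receptor, the main route of iron into dividing cells (chromosome 16, 32608920 to 32632794, plus strand, GRCm38). In controls 1 to 5 its level was 26659, 25869, 21124, 27656 and 22825 normalized counts. In deleted libraries 1 to 5 it was 14459, 15437, 19762, 19524 and 11695. Every deleted library lay below every control, with library 5 lowest. The means were 24827 ± 2746 and 16175 ± 3451 (SD, n = 5), so the deleted group held 65.2% of the control level (log2 difference -0.64, SE 0.131, limma adjusted p = 0.00855). No other gene among the 10 differed by as much. After correction for length and GC content the difference was -0.39 (SE 0.0807, adjusted p = 0.0111). The corrected groups did not overlap, but how many of all genes are so after correction was not counted. With the mean level of a marker list as a covariate, the Tfrc difference was -0.48 for erythroid markers (adjusted p = 0.0337, where 21.5% of all genes passed), -0.49 for macrophage markers (adjusted p = 0.114) and -0.42 for B cell markers (adjusted p = 0.179). With each library's slope on transcript length as a covariate it was -0.21 (adjusted p = 0.968). The call was thus lost with 3 of these 4 covariates. With those 3, almost no gene was called: 2 (macrophage), 1 (B cell) and 0 (slope) of all 13567.

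Slc11a2 encodes DMT1, which moves iron out of the endosome into the cytosol (chromosome 15, 100387898 to 100425072, minus strand). The controls, 1 to 5, stood at 8839, 8944, 8783, 8921 and 7752 normalized counts, and the deleted libraries at 7072, 6601, 6541, 7545 and 5776. The groups did not overlap, although control library 5 stood well below the other controls and close to deleted library 4. The mean fell from 8648 ± 505 to 6707 ± 660 (SD, n = 5), to 77.6% of the control level (log2 difference -0.37, SE 0.0706, limma adjusted p = 0.00797). The corrected difference was -0.23 (adjusted p = 0.0135; 4 of 5 deleted libraries below every control), and -0.33 (adjusted p = 0.00872) where the correction used the shorter principal transcript of 3025 bases in place of the longest, 4415. Some Slc11a2 messages end in an IRE of a looser form than the one searched, and the values do not separate them from those that do not. The gene Gm5475 overlaps Slc11a2 on the opposite strand, and whether counting used strand is not given in the sources used here.

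Steap3 encodes an endosomal ferrireductase that prepares iron for DMT1 (chromosome 1, 120190757 to 120272705, minus strand). Control libraries ran from 1001 to 1149 normalized counts and deleted libraries from 993 to 1399, so the groups overlapped. On average the control group had 1075 ± 59.8 and the deleted group 1110.1 ± 166 (SD, n = 5); the log2 difference was 0.04 (SE 0.0886, limma adjusted p = 0.772), and after correction 0.22 by the longest transcript (adjusted p = 0.102) and 0.01 by the principal one (adjusted p = 0.936). Sirt1 deleted library 3 was the highest of all; without it the difference was -0.05, which also did not pass. The receptor and the transporter of this endosomal step fell, and the reductase did not pass.

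Slc25a37 encodes mitoferrin 1, the carrier that takes iron into mitochondria and is abundant in erythroid cells (chromosome 14, 69241848 to 69285112, minus strand). Its level in controls 1 to 5 was 12097, 10825, 9081, 11417 and 11526 normalized counts, and in the deleted libraries 6247, 8996, 10055, 9028 and 7583. Deleted library 3 lay above control library 3, and deleted library 1 was lowest. The mean fell from 10989 ± 1158 to 8382 ± 1482 (SD, n = 5), to 76.3% (log2 difference -0.40, SE 0.116, limma adjusted p = 0.0216). It was not called after correction (-0.27, adjusted p = 0.11). With erythroid markers as a covariate the difference was -0.15 and was not called (adjusted p = 0.0936). Without Sirt1 deleted library 1, which has the lowest erythroid sum, it was -0.30 and was called, and without control library 1 it was not called (adjusted p = 0.0592). It was not called with neutrophil markers as a covariate either (-0.19, adjusted p = 0.134).

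**Figure D2:**
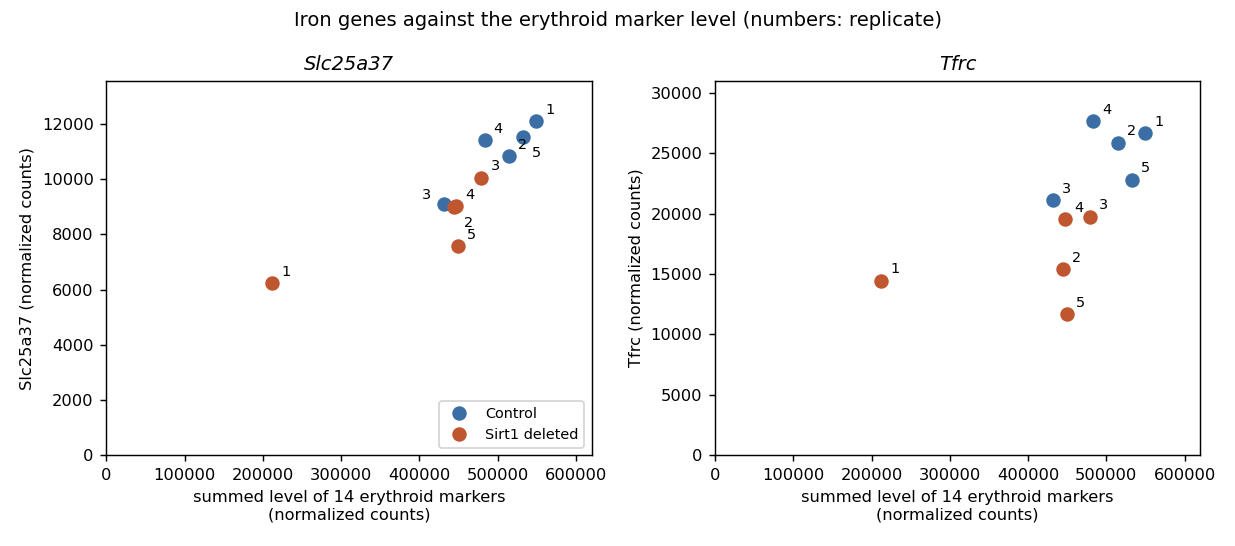
Slc25a37 (left) and Tfrc (right) in normalized counts against the summed level of 14 erythroid markers, 1 point a library, numbered by replicate, control in blue and Sirt1 deleted in orange. Slc25a37 is lowest in Sirt1 deleted library 1, at the lowest marker sum (212135). Tfrc is lowest in deleted library 5 (11695), at a marker sum of 449414, and that library also has the steepest slope on transcript length (-0.24). The part of erythroid cells in either difference was not tested.

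Slc25a37 followed the erythroid markers more closely than Tfrc did. Taken as deviations from the group means over the 10 libraries, Slc25a37 had a Pearson r of 0.96 with the mean log2 level of the erythroid markers. Fth1 had 0.63, Steap3 0.54 and Tfrc 0.52, and the other genes ran from -0.48 (Fbxl5) to 0.43 (Ftl1), with Slc11a2 at -0.21. The tie of Slc25a37 was not to erythroid markers alone: it had -0.84 with neutrophil and 0.58 with macrophage markers. These points share library depth, and Sirt1 deleted library 1 is far from the rest on the erythroid marker axis. Of the 14 erythroid markers, 5 fell and 0 rose, where 17.5% and 14.5% of all genes did, and none was at 0. After correction 6 of 13 were lower and 0 higher, where 6.1% and 8.48% of all genes were.

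Fth1 encodes the heavy chain of ferritin, which oxidizes iron as it enters the shell (chromosome 19, 9980598 to 9985098, plus strand). Controls 1 to 5 had 14116, 13026, 14022, 13582 and 16552 normalized counts of it, and the deleted libraries 15128, 17644, 19754.5, 16163 and 18679.7. Control library 5 was above deleted libraries 1 and 4, and the other 4 controls were below all deleted libraries. The mean rose from 14259 ± 1352 to 17474 ± 1865 (SD, n = 5), to 123% of control (log2 difference 0.29, SE 0.0813, limma adjusted p = 0.019). Without control library 2 the rise just missed the threshold (0.26, adjusted p = 0.0566). Corrected for the longest transcript, of 1494 bases, the difference was 0.12 (adjusted p = 0.192), and for the shorter principal one, of 929 bases, 0.06 (adjusted p = 0.472).

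Ftl1 encodes the light chain, which helps iron mineralize inside the shell (chromosome 7, 45457944 to 45459884, minus strand). Its level was 18281.5, 17061, 16921, 17548 and 19280.0 normalized counts in controls 1 to 5 and, in the deleted libraries, 19260.5, 22315, 22775, 20425 and 28194. The groups overlapped only by deleted library 1 against control library 5. Library 5 of the deleted group was by far the highest. The mean rose from 17819 ± 975 to 22594 ± 3438 (SD, n = 5), to 127% (log2 difference 0.33, SE 0.0879, limma adjusted p = 0.016). After correction it was -0.0074 (adjusted p = 0.939), and 0.03 with the same gene length but principal transcripts elsewhere (adjusted p = 0.742). The annotation holds other ferritin entries, Fth-ps2, Fth-ps3, Ftl1-ps1, Ftl1-ps2 and Ftl2-ps, none of which is listed in the table, so reads from them could have been counted with Fth1 or Ftl1, or the reverse.

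The ratio of the ferritin chains to each other overlapped between the groups. Fth1 divided by Ftl1 was 0.764 to 0.859 in the control libraries and 0.662 to 0.867 in the deleted ones, in normalized counts, with deleted library 5 lowest. Tfrc divided by Fth1, an uptake message over a storage message, was 1.38 to 2.04 in the control group and 0.626 to 1.21 in the deleted group. The groups did not overlap in this ratio. That is no separate result, because Tfrc alone did not overlap and Fth1 was called in the other direction. Transcript length enters this ratio, because the Tfrc message of 4890 bases is far longer than that of Fth1.

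Ncoa4 encodes the receptor that carries ferritin to the lysosome, where its iron is released (chromosome 14, 32159865 to 32179855, plus strand). In order of replicate the controls were at 6323, 6252.5, 6172, 5879 and 6274.5 normalized counts, and the deleted libraries at 5207, 5062.5, 5381, 5491 and 4430.5. The groups did not overlap. The controls were the tightest set among the 10 genes, with a coefficient of variation of 2.86%. The mean fell from 6180.1 ± 177 to 5115 ± 416 (SD, n = 5), to 82.8% (log2 difference -0.28, SE 0.0597, limma adjusted p = 0.00902). The corrected difference was -0.12 (adjusted p = 0.0484), close to the threshold, and -0.14 with principal transcripts (adjusted p = 0.024). The corrected groups did not overlap, and again the share of all genes that are so was not counted.

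Among the sensors, Ireb2 fell, and Aco1 and Fbxl5 did not pass. Ireb2 encodes iron regulatory protein 2, which binds IREs and is destroyed when iron is plentiful (chromosome 9, 54863789 to 54912530, plus strand). Replicates 1 to 5 of the controls were at 3878, 4151, 3668, 3771 and 3365 normalized counts and those of the deleted group at 3165, 2936.5, 3265, 3281 and 2223. The groups did not overlap, and deleted library 5 was far below the others. The mean fell from 3767 ± 288 to 2974 ± 442 (SD, n = 5), to 79% (log2 difference -0.35, SE 0.0994, limma adjusted p = 0.0199). After correction it was -0.04 (adjusted p = 0.548); its transcript of 5770 bases is the longest among the 10. Without control library 1 (adjusted p = 0.0512) or control library 2 (adjusted p = 0.0579) the deposited difference also missed the threshold, as it did with erythroid markers as a covariate (-0.34, adjusted p = 0.0631).

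Aco1 encodes iron regulatory protein 1, an aconitase that binds IREs when it lacks its iron-sulfur cluster (chromosome 4, 40143081 to 40198338, plus strand). It ran from 2572 to 3088 normalized counts in the control group and from 2222.5 to 2716 in the deleted group. Mean levels were 2784 ± 193 in controls and 2552 ± 191 in deleted libraries (SD, n = 5), with a difference of -0.13 in log2 (SE 0.0666, limma adjusted p = 0.156). Fbxl5 encodes the iron-binding subunit of the ubiquitin ligase that removes iron regulatory protein 2 (chromosome 5, 43744615 to 43821638, minus strand). It ran from 1780.5 to 2049 and from 1508 to 1888, with means of 1909 ± 101 and 1716 ± 172 and a log2 difference of -0.16 (SE 0.0721, adjusted p = 0.107). The groups overlapped for both genes. The gene Bst1 overlaps Fbxl5 on the opposite strand. Corrected, Aco1 stood at -0.05 and Fbxl5 at 0.03, and neither passed.

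**Figure D3:**
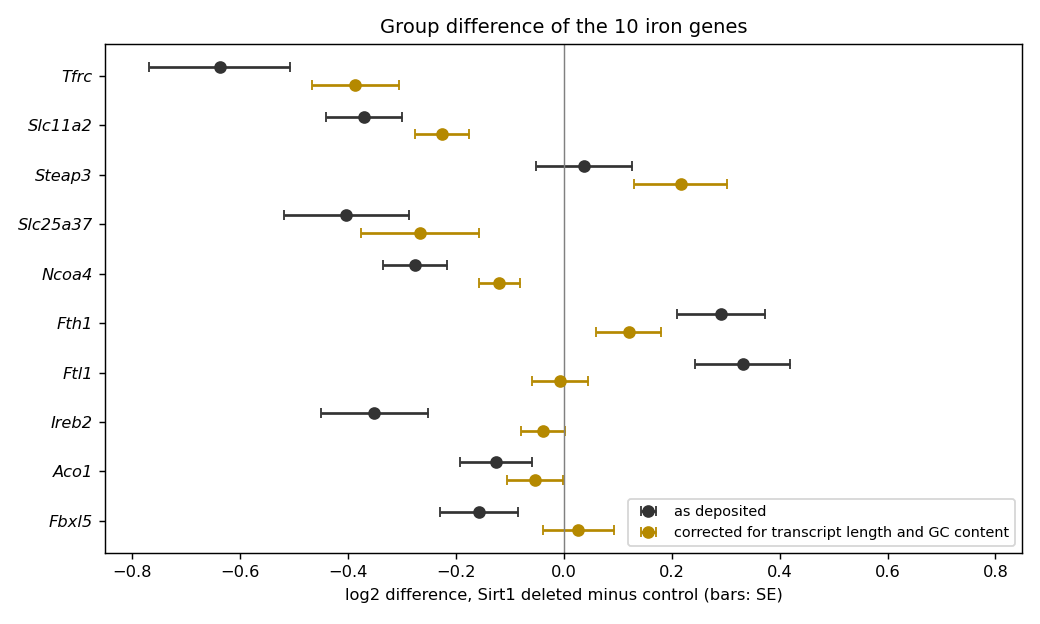
Log2 difference (Sirt1 deleted minus control) of the 10 iron genes with its SE, in limma, from the deposited values (black) and after correction of each library for transcript length and GC content (yellow). Tfrc stays furthest below 0, at -0.64 and -0.39, while Ftl1 and Ireb2 move to within 1 SE of 0 after correction.

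The control libraries had slopes of log2 deviation on log2 transcript length of 0.098 ± 0.0615 and the deleted ones of -0.098 ± 0.0861 (SD, n = 5). Fth1 and Ftl1 belong to the fifth of genes with the least transcript length (1784 bases or under), where the median difference of all genes was 0.23 and 44.6% were called higher. Tfrc, Slc11a2, Slc25a37, Ncoa4, Aco1 and Fbxl5 are in the length class from 3607 to 5060 bases, where the median was -0.12 and 26.1% were called lower. Ireb2 and, by its longest transcript (5158 bases, against a principal one of 2752), Steap3 are in the longest class, with a median of -0.28 and 52.1% called lower. The differences of the ferritin genes lay 0.06 (Fth1) and 0.10 (Ftl1) above the median of their length class, Ireb2 0.07 below its own, and Tfrc 0.51 below. With each library's slope as a covariate, 0 of the 10 genes were called by limma, beside 0.0% of all genes. An unadjusted p under 0.05 was reached by 0 of the 10 and by 577 of all 13567. Slc25a37 then stood at -0.40. Without the 3 libraries of steepest slope (controls 1 and 2, deleted 5) Tfrc stood at -0.47 (limma adjusted p = 0.0713). Then 0 of the 10 genes were called, beside 0.0221% of all genes. At an unadjusted p under 0.05 these were 7 of the 10 and 3159 of all 13567. With macrophage or B cell markers as a covariate 0 of the 10 were called, beside 0.0147% and 0.00737% of all genes. At an unadjusted p under 0.05 there were 7 and 6 of the 10, beside 3942 and 2976 of all 13567.

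**Figure D4:**
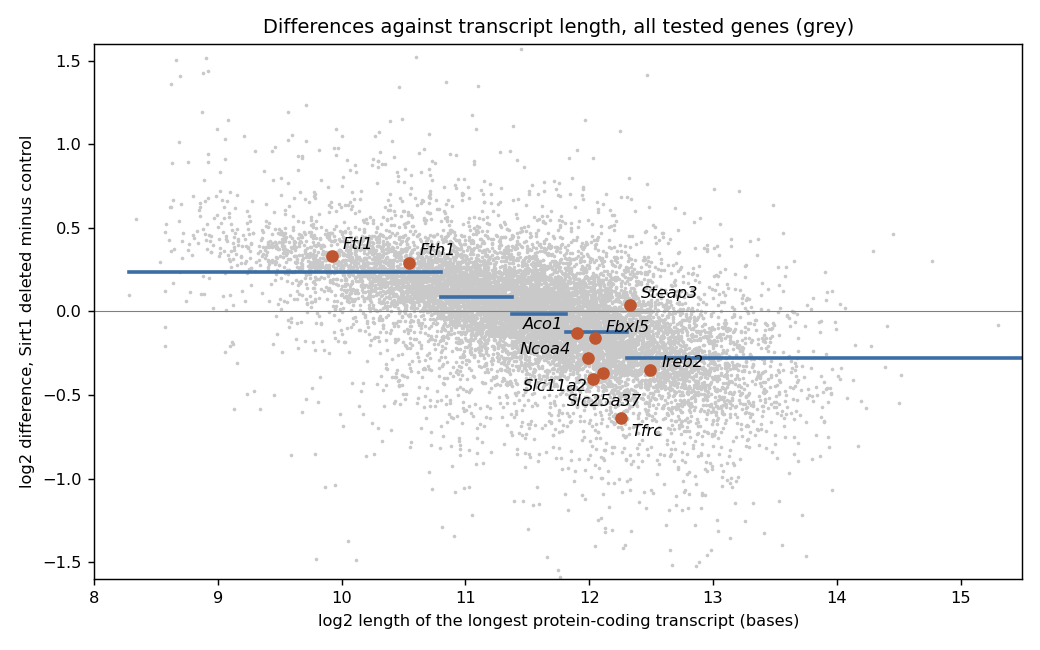
Log2 difference (Sirt1 deleted minus control) of tested genes (grey) against the log2 length of the longest protein-coding transcript, with the 10 iron genes in orange and the median of each length quintile as a blue line; genes beyond the axes are not drawn. The medians step down from 0.23 to -0.28, the ferritin genes lie near the first of them and Tfrc lies far below the line of its own class.

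Levels differed widely between the genes once divided by transcript length, here in normalized counts per kilobase of the shortest principal transcript. In the control group Ftl1 stood at 18407.5 ± 1007 and Fth1 at 15349 ± 1456 (SD, n = 5). Tfrc followed at 5077 ± 561.6, Slc11a2 at 2859 ± 167, Slc25a37 at 2633 ± 277.5 and Ncoa4 at 1849 ± 52.9. The sensors were lower, with Aco1 at 727 ± 50.4, Fbxl5 at 668 ± 35.3 and Ireb2 at 653 ± 49.9, and Steap3 was lowest at 390.5 ± 21.7. Slc11a2 and Slc25a37 were within their spread of each other, and so were Aco1, Fbxl5 and Ireb2 on this scale. In the deleted group the order was the same but the distance from ferritin to receptor was wider: Ftl1 was at 23341 ± 3552 and Tfrc at 3308 ± 706. Dividing by length does not remove a library's slope on length. After the length and GC correction the log2 difference was -0.0074 for Ftl1 and -0.39 for Tfrc. The order depends on the transcript used. Divided by the longest transcript instead, Fth1 was at 9544.5, Slc11a2, at 1959, came below Slc25a37, Fbxl5, at 451, came below Aco1 and Ireb2 by more than their spread, and Steap3 was at 208.

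As deviations from the group means over the 10 libraries, 28 of the 45 pairs among the iron genes had a positive Pearson r and 17 a negative one. Slc11a2 and Ireb2 had 0.85, Tfrc and Ireb2 0.81, Tfrc and Slc11a2 0.63, and Fth1 and Ftl1 0.72. Between uptake and storage, Slc11a2 and Ftl1 had -0.89, Slc11a2 and Fth1 -0.78, Tfrc and Ftl1 -0.47 and Tfrc and Fth1 -0.12. With the library's length slope, Ireb2 had an r of 0.95, Slc11a2 0.88, Ftl1 -0.86, Tfrc 0.65 and Slc25a37 0.003. These are descriptions of 10 points that share library and slope. The genes whose log2 values were most like Tfrc over the 10 libraries were Trak2 (r = 0.99), Usp32 (0.98), Pla2g4c (0.98), Clcn3 (0.98) and Serinc1 (0.98), with an r of 0.93 to 0.96 within the groups. Those most like Fth1 were Laptm4a (r = 0.98), Pla2g12a (0.97), Cox20 (0.97), Ptpmt1 (0.97) and Paip2 (0.97), with 0.93 to 0.97 within the groups. An r over all 10 libraries includes the group difference. The genes most like Tfrc had longest transcripts from 2880 (Serinc1) to 7053 bases (Usp32). Those most like Fth1 had shorter ones, from 471 (Cox20) to 1773 bases (Laptm4a), with no length for Ptpmt1. The part of length in these likenesses was not tested.

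Other genes of iron metabolism were taken from 6 lists of 97 entries, of which 82 were tested. Of these, 22 rose, 15 fell and 45 did not pass, against 14.5% and 17.5% of all genes tested. In the corrected values 14 of 80 were higher and 9 lower, against 8.48% and 6.1% of all genes.

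The list of iron-sulfur cluster assembly, the largest, had the most rises. Of 28 genes tested, 14 rose, 2 fell and 12 did not pass, where 14.5% of all genes rose and 17.5% fell. Their median log2 difference was 0.18, and their median transcript length was 2434 bases. The ferredoxin gene Fdx1l, whose protein hands electrons to cluster assembly, rose from 374.5 ± 67.7 to 609 ± 21 (0.72), Fdx1 from 341 ± 22.9 to 452 ± 36.5 (0.40), and Bola3, a factor that passes clusters to client enzymes, from 1044 ± 108 to 1456 ± 162.5 (0.48). Isca1, a factor of late cluster assembly, fell by 0.22. After correction Fdx1l stood at 0.29, Fdx1 at 0.45 and Bola3 at 0.44, all called, although Fdx1 was not with principal transcripts (0.21, adjusted p = 0.0974), and Isca1 stood at -0.27, also called. Of the 14 rises, 8 were also called higher after correction, and the corrected median was 0.05. In all, 10 of 26 genes were higher and 1 lower in the corrected values, where 8.48% and 6.1% of all genes were.

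Around the transferrin cycle and other import, 1 of 14 tested genes rose, 4 fell and 9 did not pass (median -0.12), beside 14.5% and 17.5% of all genes. After correction 1 was higher and 2 lower, where 8.48% and 6.1% of all genes were. Lrp1, a receptor that takes up heme bound to hemopexin, fell from 918.5 ± 302 to 486.5 ± 66.6 (-0.87), the metal importer gene Slc39a14 from 1359 ± 93.4 to 1053 ± 155 (-0.38), and Vps35, of the retromer that returns receptors from endosomes, from 4104.5 ± 317 to 3148 ± 547 (-0.40). Snx3, another factor in the return of transferrin receptor, rose from 4117 ± 268 to 4908 ± 208 (0.25). Corrected, Lrp1 (-0.61) and Vps35 (-0.29) were still called, and Slc39a14 (-0.18) and Snx3 (0.08) were not; Snx3 was called with principal transcripts (0.12, adjusted p = 0.0493). Lrp1 is also a gene of macrophages, whose 12 markers included 6 that fell and 0 that rose, where 17.5% and 14.5% of all genes did. The part of these cells in the fall of Lrp1 was not tested. Tfr2, a second transferrin receptor that acts in sensing, was at 536 ± 63.5 and 595 ± 103 and did not pass.

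In cytosolic iron handling 6 of 12 genes rose, 1 fell and 5 did not pass (median 0.15), beside 14.5% and 17.5% of all genes. Corrected, 3 were higher and 1 lower, where 8.48% and 6.1% of all genes were. Pcbp2, an iron chaperone, rose from 19527 ± 452 to 22015 ± 842 (0.17, corrected 0.26 and called, but 0.11 and not called with principal transcripts), and Rbx1, a ring subunit of cullin ligases including that of Fbxl5, from 2162 ± 120 to 2840.5 ± 471 (0.38, corrected 0.30 and called). Pcbp4 rose by 0.45 and was not called after correction (0.22). Herc2, a ubiquitin ligase that removes Ncoa4 protein when iron is high, fell from 4915 ± 815 to 3109 ± 537 (-0.66, corrected -0.30 and called). Ncoa4 and Herc2 messages were thus both lower in the deleted group.

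For export and heme recycling, 0 of 9 genes rose, 4 fell and 5 did not pass (median -0.32), beside 14.5% and 17.5% of all genes. Corrected, 0 were higher and 2 lower, where 8.48% and 6.1% of all genes were. Slc40a1, the iron exporter ferroportin, fell by 0.53 and was also called after correction (-0.44). It is abundant in macrophages, of whose 12 markers 6 fell and 0 rose, where 17.5% and 14.5% of all genes did. These markers summed to 7502 to 11734 in the control and 3628 to 7165 in the deleted group, and none was at 0. The part of these cells in the fall of Slc40a1 was not tested. Abcg2 fell by 0.55, and Cp, a ferroxidase gene, had a log2 difference of -1.02 at a low level (43 ± 18.3 and 21.5 ± 9.85). Neither was called after correction for the longest transcript, and Abcg2 was with principal transcripts (-0.50). In mitochondrial iron and heme synthesis 1 of 13 genes rose, 2 fell and 10 did not pass (median 0.02), beside the same 14.5% and 17.5%. Corrected, 0 were higher and 2 lower, beside 8.48% and 6.1% of all genes. Slc25a28, mitoferrin 2, the carrier that resembles Slc25a37 and is found outside the erythroid line, rose from 704 ± 22.6 to 877 ± 76.5 (0.31), while Slc25a37 fell; the corrected value of Slc25a28 was 0.02 and was not called. Alas2, the erythroid start enzyme of heme synthesis, fell by 0.59 (corrected -0.69, called) and Fech, which inserts iron into heme, by 0.40 (corrected -0.09, not called). Alas2 is also among the erythroid markers.

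**Figure D5:**
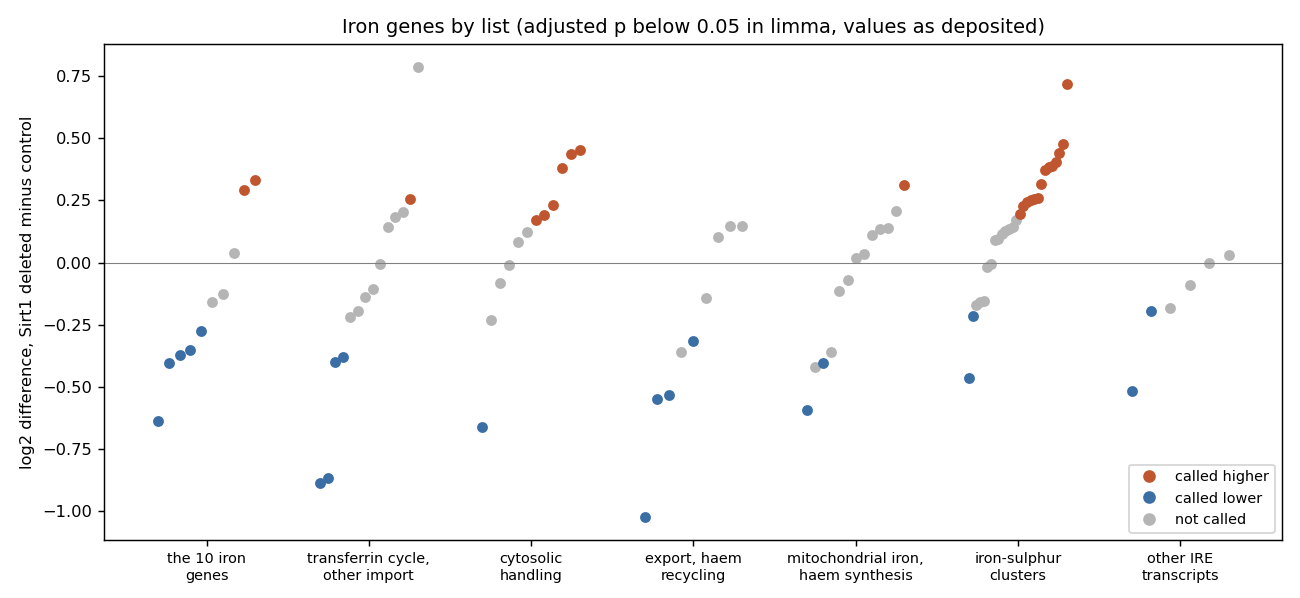
Log2 difference (Sirt1 deleted minus control, values as deposited) of the 10 iron genes and of the tested genes of 6 other lists of iron metabolism, 1 point a gene, ordered by value within a list; orange points were called higher, blue points lower and grey points not called at an adjusted p of 0.05 in limma. The list of iron-sulfur cluster assembly, the largest with 28 of the 82 tested genes, holds 14 of the 22 rises. Cytosolic handling holds 6 rises among 12 genes, and export and heme recycling 4 falls and 0 rises among 9. Of all genes tested, 14.5% were called higher and 17.5% lower.

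Genes with an IRE match were called in both directions. Of 26 tested genes with a match in the 5′ UTR, 7 were called higher and 8 lower, where 14.5% and 17.5% of all genes were. Fth1 and Ftl1 were among the former, but not called after correction, and Slc40a1 and Alas2 among the latter. Of 96 tested genes with a match in the 3′ UTR, 11 were called higher and 24 lower, beside the same 14.5% and 17.5% of all genes, with a median of -0.10 that became 0.04 after correction. From the list of other transcripts known to carry an IRE, 2 of 6 fell and 0 rose, beside 17.5% and 14.5% of all genes. Epas1, a hypoxia factor gene, fell from 4748 ± 347 to 3327 ± 374 (-0.52, corrected -0.31 and called), and Cdc14a by 0.20 (corrected -0.0021, not called).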

How the data were processed

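Per the submitters' processing notes, the tools were kallisto 0.44.0 and DESeq, and the genome mm10; per the labels the libraries were strand-specific total RNA; annotation, gene step and strand use are not given in the sources used here. The authors deposited 1 signal column a library, holding normalized counts, not raw ones; all 10 columns were used and 0 left out. Low values lay within 0.1 of a whole step of reads for 81.4 to 90.6% of them per library, too few to recover counts, so no count model was run.

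Genes with a value of 10 or more in at least 5 libraries were tested. limma 3.58.1 (R 4.3.3, trend) compared log2(value + 1) between groups with no covariate, two-sided, with Benjamini-Hochberg adjustment over all tested genes; Sirt1 was also tested by exact permutation. Fold changes are on that scale. The correction subtracted, in each library, natural splines (5 degrees of freedom) fitted to log2 length and to GC, taken from each gene's longest protein-coding transcript in GENCODE M21 (91.4% of tested genes matched). True differences that follow length are removed with it. Alternatives were pseudocounts, filters, scalings, limma options, marker and slope covariates and left-out libraries. The correction with the shortest APPRIS principal transcript and the neutrophil covariate were chosen after seeing the data. Only the limma fit and the length and GC correction were run on simulated libraries. Their noise, before counting error, was set below the real spread. The outcome is not reported here, and no result above rests on it. Tables used Python 3.11.15.

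Named genes are the 10 iron genes, Sirt1, the called genes of smallest p in each other iron list (up to 3 in each direction), and the 5 genes most like Tfrc and Fth1 (group mean of at least 100, passing over clone, predicted and pseudogene names). Tfr2 and the 5′ UTR examples were named after their values were seen, and some genes under the rule are not reported here. Members, lists and tests were chosen with earlier results of these data known.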

Additional observations from a re-analysis of the deposited data

Results flagged for a closer look

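Among the 22 sets of 5 libraries examined (10 iron genes and Sirt1 in each group), 2 held a library far from the other 4, by a gap of more than the critical share of the whole range (Dixon); chance flags about 1 in 20 sets. Slc11a2 was lowest in control library 5, at 7752 normalized counts, with a gap of 0.865 of the range; without that library the log2 difference was -0.41 and still called. Steap3 was highest in Sirt1 deleted library 3, at 1399, with a gap of 0.761 of the range.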

How the results depend on the processing

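Main counts were 4344 of all genes, 7 of the 10 iron genes and 37 of 82 other iron genes. A B cell marker term in limma left 1, 0 and 0 called (2976, 6 and 25 at an unadjusted p under 0.05), with macrophage markers 2, 0 and 0 (3942, 7 and 29), with the length slope 0, 0 and 0 (577, 0 and 5). Without the 3 libraries of steepest slope (controls 1 and 2, deleted 5) 3, 0 and 0 were called (3159, 7 and 28). The length and GC correction gave 1807, 3 and 23, and with principal transcripts 2121, 3 and 22. Neutrophil markers, a covariate added after seeing the data, gave 1898 genes and 16 other iron genes. Leaving out 1 library gave 2200 to 4712, 5 to 7 and 19 to 43; controls 1 (2335 and 20) and 2 (2200 and 19) and deleted 2 (2711 and 23) moved these most. Sirt1 missed the threshold with covariates of B cells (-0.27), macrophages (-0.35), erythroid cells (-0.38), neutrophils (-0.37) or slope (-0.00065), and without the steepest libraries (-0.27). With the slope covariate Aco1 (0.070), Fbxl5 (0.068), Ireb2 (0.11) and Ftl1 (-0.026) changed sign; corrected, Fbxl5 (0.027) and Ftl1 (-0.0074) did. Steap3 ranged from -0.049 (without deleted library 3) to 0.074 with 1 library left out. The cause was not tested. Of 270 values of the 10 genes under alternatives, 222 kept direction and call, 41 lost the call and 7 reversed. The 222 include 26 of Aco1, 25 of Fbxl5 and 26 of Steap3, which had no call to lose. Many alternatives, such as pseudocounts and filters, are also close to the main setting. Tfrc ranged from -0.72 to -0.21 and Slc11a2 from -0.41 to -0.09. No paired analysis was possible because the labels give no number or origin that ties a control to a deleted library.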
